A study of Anas platyrhynchos and Gallus gallus and Anas rubripes with 21 samples.

Results

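Trigeminal ganglia (TG), which hold the sensory neurons of the bill, tongue and oral cavity, were sequenced as whole tissue from late embryos of the domestic Pekin duck (*Anas platyrhynchos domesticus*) and of 5 wild ducks, and the domestic bird was set against the wild ones gene by gene. The wild ducks were black duck (*Anas rubripes*), lesser scaup (*Aythya affinis*), ruddy duck (*Oxyura jamaicensis*), harlequin duck (*Histrionicus histrionicus*) and wood duck (*Aix sponsa*). These 6 ducks account for 18 of the 21 samples of the series, 3 birds of each species, and chicken makes up the rest. Pekin duck embryos were at embryonic day 25 to 26, black duck at 21 to 22, lesser scaup at 25 to 26, ruddy duck at 30 to 31, harlequin duck at 28 to 29 and wood duck at 28 to 31, all taken once the inner shell membrane had been broken. Expression is given as RPKM (read counts scaled to gene length and to library size), and the deposited table holds 1 value for each species, the mean of its 3 birds. A gene was read as outside the wild range where its Pekin duck RPKM lay above the highest or below the lowest of the 5 wild ducks, among the 12157 of 20451 genes that averaged at least 1 RPKM over the 6 ducks.

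That rule chose 3001 genes (24.7% of those tested), and since it used the same values that are described here, no count below is a test. With 1 mean for each species, the spread between birds is unknown, and every SD below is the spread between the 5 wild species. A comparison of 1 species with 5 could in any case not go below an exact permutation p of 0.167 one-sided or 0.333 two-sided. Eggs of Pekin duck came from a commercial farm and those of the wild ducks from a wildlife research center or a waterfowl conservancy, so domestication, the source of the eggs and the species itself cannot be told apart. The sex of the birds was not given in the sources used here, and no group received a treatment.

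In a sensory ganglion, low-threshold mechanoreceptors detect touch through the ion channel PIEZO2, while nociceptors and thermoreceptors carry pain, heat and cold through channels of the TRP family and release neuropeptides such as substance P. Satellite glia wrap the cell bodies of both kinds of neuron and Schwann cells sheathe their axons, in part with myelin. The Pekin duck descends from the mallard, a close relative of the black duck, and ducks of this genus find much of their food by touch.

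The tissue carried its defining markers. All 12 general sensory neuron genes that were looked up, among them the transcription factor genes *ISL1* and *POU4F1*, passed the level filter, and their summed level was 8300 RPKM in Pekin duck against 7700 to 11400 RPKM in the wild ducks. Of these 12 genes, *RBFOX3* lay above the wild range in Pekin duck, while *GAP43*, a growth cone protein gene, and *SYT1*, a calcium sensor of synaptic vesicles, lay below it. The shares were 8.33% above and 16.7% below, against 15.4% and 9.32% of all genes tested. *GAP43* was at 228 RPKM in Pekin duck, against 272 RPKM in black duck, 310 in lesser scaup, 373 in ruddy duck, 336 in harlequin duck and 579 in wood duck. The profile of ruddy duck stood apart from the rest, with a Pearson r with Pekin duck over genes of 0.887, against 0.982 for black duck, 0.967 for lesser scaup, 0.952 for wood duck and 0.949 for harlequin duck. These r values describe profiles over genes, which are not independent replicates. Many of the differences that lean on ruddy duck are therefore also given without it.

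Pekin duck lay above all 5 wild ducks in 1868 genes (15.4% of the 12157 tested) and below all of them in 1133 (9.32%). Most of these gaps were small. A further condition, a difference of at least 1 on the log2(RPKM + 1) scale from the mean of the wild ducks and so at least 2-fold, left 122 genes above (1.00%) and 61 below (0.502%). Without ruddy duck in the wild mean and range, the genes at least 2-fold outside numbered 82 above and 54 below, and of the 122 and 61 genes, 71 and 39 were among them. Without black duck they numbered 257 above and 123 below.

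The share of genes outside that lay above was 62.2% as deposited and 51.2% after quantile normalization, and among those at least 2-fold outside it was 66.7% as deposited, 51.1% after quantile normalization and 44.0% where the log2 was taken of the mean wild RPKM. With median-ratio scaling the shares above were 54.0% of genes outside and 58.9% of those at least 2-fold outside. The size of the excess of higher over lower calls thus depended on the scaling and, at 2-fold, on how the wild mean was taken. The median difference over all genes tested was 0.06 on the log2(RPKM + 1) scale, and 0.02 without ruddy duck.

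**Figure D1:**
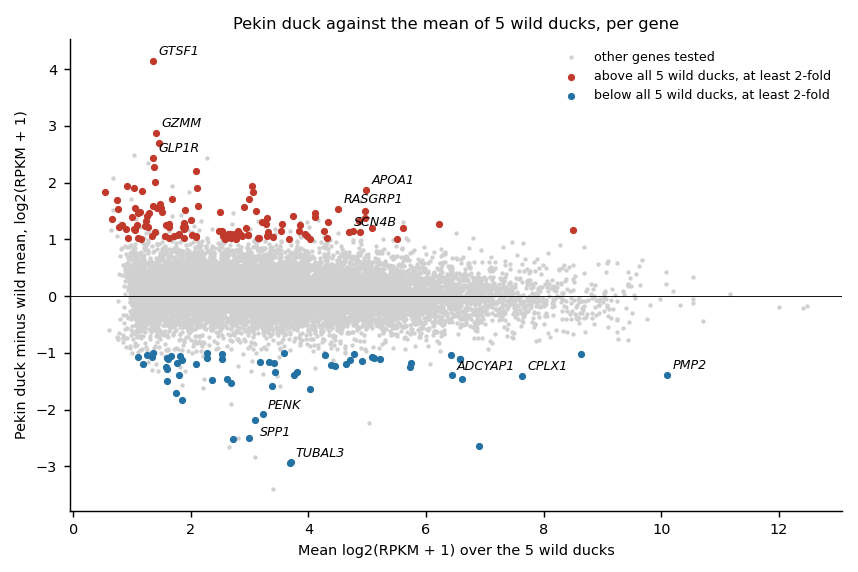
Difference between Pekin duck and the mean of the 5 wild ducks on the log2(RPKM + 1) scale (vertical axis) against the wild mean on the same scale (horizontal axis), 1 point for each of the 12157 genes tested. Red points mark the 122 genes above all wild ducks and blue points the 61 genes below all wild ducks at a difference of at least 1, and *GTSF1* lies highest at 4.15.

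At the edge of the rule, *MMS19* was outside the range by the smallest margin, at 2.80 RPKM in Pekin duck against a wild maximum of 2.80 RPKM, and *CALML3* was just inside, listed at 0 in Pekin duck and in at least 1 wild duck. At the 2-fold edge, *SEMA3G* was just past it with 24.4 RPKM in Pekin duck against 3.87 to 19.7 RPKM in the wild ducks, and *DUSP28* just short of it with 3.80 RPKM against 0.449 to 2.59 RPKM. On the lower side, *CABP7* was just past it with 0.277 RPKM in Pekin duck against 0.492 to 3.04 RPKM, and *TMIE* just short of it with 3.33 RPKM against 4.59 to 18.0 RPKM.

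The same counts were made for each wild duck against its 5 fellow ducks, to see whether the domestic bird stood apart more than a wild one did. It did not have the most genes outside the range of the others. Pekin duck had 1868 genes above and 1133 below, against 1809 and 1103 in lesser scaup, 1450 and 866 in black duck, 1831 and 2073 in wood duck, 2612 and 1404 in harlequin duck and 2587 and 5568 in ruddy duck. Of genes at least 2-fold outside, Pekin duck had 122 above and 61 below, close to the 114 and 80 of black duck and the 148 and 75 of lesser scaup, and fewer than wood, harlequin and ruddy duck. These counts were not tested against each other.

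**Figure D2:**
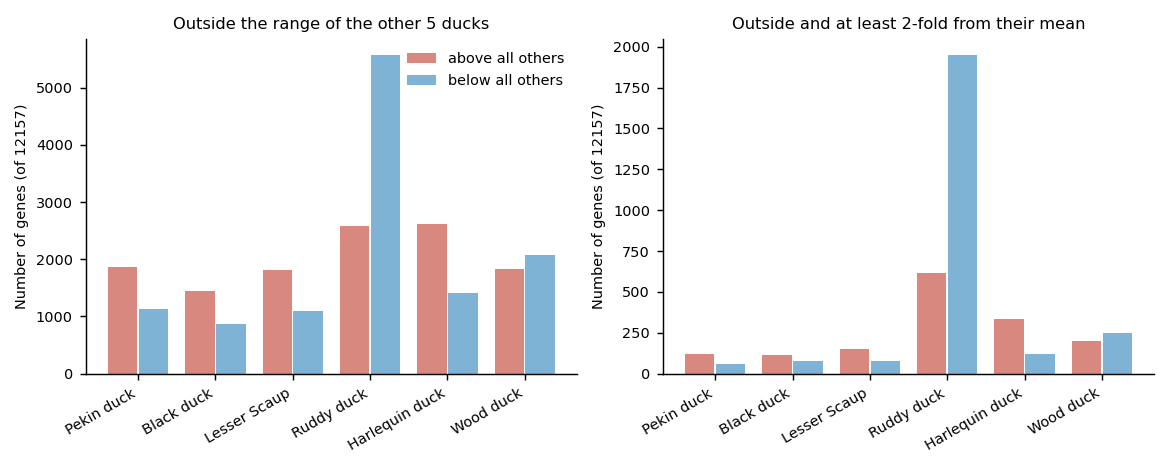
Number of genes in which each duck lay above (red) or below (blue) all of the other 5, of 12157 tested, at any difference (left) and at a difference of at least 2-fold from the mean of the other 5 (right). Pekin duck, at the left of each plot, had 1868 and 1133 genes at any difference and 122 and 61 at 2-fold, and ruddy duck had the most genes below, 5568 and 1947.

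Reads of all ducks were aligned to a Pekin duck genome and to a chicken genome, and part of the table was counted on the chicken annotation. Among the 9795 genes present in both annotations, Pekin duck lay above the wild range in 14.6% and below it in 9.9%. Among the 1251 genes of the duck annotation alone, it lay above in 18.7% and below in 6.24%, with a median difference of 0.15. Among the 1111 genes of the chicken annotation alone, the shares were 18.0% and 7.65%, with a median difference of 0.12. Other ducks, each against its own 5 fellow ducks, had like medians. For the duck annotation alone they were 0.14 in black duck, 0.11 in lesser scaup, 0.06 in harlequin duck, -0.01 in wood duck and -0.49 in ruddy duck. For the chicken annotation alone they were 0.1, 0.09, 0.14, -0.01 and -0.46 in the same order, so ruddy duck alone was far lower. The part of the reference genome, the domestic bird's own or that of chicken, in these shares was not tested.

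The nearest wild duck was most often the black duck, the one wild bird of the same genus. Of the 1868 genes above the range, black duck was nearest in 936 (50.1%), and of the 1133 below in 492 (43.4%). Above and below, lesser scaup was nearest in 19.1% and 17.4% and harlequin duck in 16.1% and 14.5%. Wood duck was nearest in 9.37% and 15.1%, and ruddy duck in 5.3% and 9.62%. Among genes at least 2-fold outside, black duck was nearest in 87 of 122 above (71.3%) and in 33 of 61 below (54.1%). Pekin duck and black duck together lay above the other 4 ducks in 1648 genes (13.6% of those tested) and below them in 868 (7.14%). Other pairs of ducks were not counted.

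Chicken, the other domestic bird, did not as a rule share the side of Pekin duck for genes above the range. Over the 9795 genes in both annotations, chicken lay above the range of the wild ducks in 21.5% and below it in 38.6%. For the 1434 of these in which Pekin duck was above, chicken was above the wild ducks in 30.3% and below in 30.3%. For the 970 in which Pekin duck was below, chicken was below in 54.2% and above in 16.5%. Among genes at least 2-fold outside, chicken was on the Pekin duck's side in 18 of 86 above (20.9%) and in 12 of 44 below (27.3%).

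The widest gap of all belonged to *GTSF1* (duck gene 101804585, chicken gene 771059), known in the mouse as a factor that silences transposons in germ cells. It was at 44.1 RPKM in Pekin duck, against 0.905 RPKM in black duck, 2.56 in lesser scaup, 2.05 in ruddy duck, 0.311 in harlequin duck and 2.96 in wood duck. The wild ducks averaged 1.76 ± 1.12 RPKM (SD over the 5 wild species), and Pekin duck exceeded the nearest of them, wood duck, 14.9-fold. On the log2(RPKM + 1) scale the difference from the wild mean was 4.15, and chicken, at 26.7 RPKM, was also above every wild duck.

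**Figure D3:**
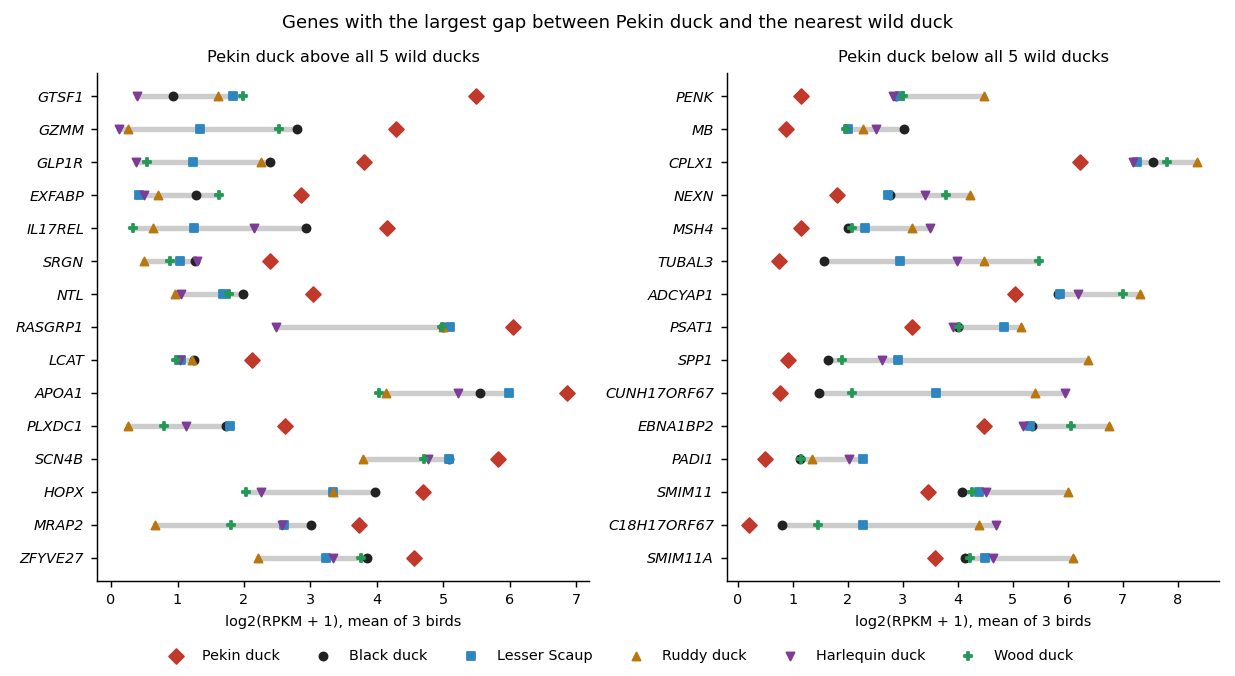
Levels of the 15 genes with the widest gap above (left) and below (right) the wild range, as log2(RPKM + 1) of the mean of 3 birds, with 1 marker for each duck and a grey bar over the range of the 5 wild ducks. Pekin duck (red diamonds) lies right of every grey bar in the left plot, farthest for *GTSF1*, and left of every bar in the right plot, farthest for *PENK*.

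Several of the genes far above the wild range have roles in lymphocytes. *GZMM* encodes granzyme M, a serine protease of cytotoxic lymphocytes, and was at 18.6 RPKM in Pekin duck, against 5.97 RPKM in black duck, 1.54 in lesser scaup, 0.191 in ruddy duck, 0.0865 in harlequin duck and 4.78 in wood duck. *SRGN* encodes serglycin, the proteoglycan of secretory granules in blood cells, and was at 4.23 RPKM in Pekin duck, with the wild ducks between 0.410 and 1.46 RPKM. *RASGRP1*, an activator of Ras best known in T cells, was at 65.1 RPKM in Pekin duck, against 30.8 RPKM in black duck, 33.1 in lesser scaup, 30.9 in ruddy duck, 4.59 in harlequin duck and 30.5 in wood duck. Unlike the other two, *RASGRP1* was about level in all wild ducks except harlequin duck.

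A list of cytotoxic lymphocyte genes was drawn up after these values were seen, so its counts describe and support nothing. Of its 6 members that passed the level filter, 3 lay above the wild range and 1 below, with a median difference of 0.98. These shares were 50% and 16.7%, against 15.4% and 9.32% of all genes. The member below, the T cell receptor chain gene *CD247*, passed the level filter through harlequin duck alone, at 7.46 RPKM, and its value of 0.111 RPKM in Pekin duck was not distinct from the 0.117 RPKM of ruddy duck. *CD3D*, another chain of the T cell receptor complex, was within the range at 4.11 RPKM in Pekin duck against 1.27 to 5.62 RPKM. *PRF1*, *GZMK* and *CD8B*, defining genes of cytotoxic cells, were listed at 0 in Pekin duck and in at least 1 wild duck. With no filter on low values, 8 of the list's 20 members lay above the wild range and 1 below. Of all genes, 13.8% and 7.44% did. Of 9 general leukocyte and macrophage genes tested, *LAPTM5* lay above the wild range and *LCP1* below (11.1% each, against 15.4% and 9.32% of all genes). Pekin duck was above the wild mean in 8 of the 9, with a median difference of 0.25. Without lesser scaup or without ruddy duck 3 lay above the range, where 18.7% and 17.9% of all genes did. With median-ratio scaling 0 of the 9 lay above, where 13.5% of all genes did. Under quantile normalization 0 of 10 tested lay above, where 13.1% did. With no filter on low values, 5 of 16 lay above and 1 below, against 13.8% and 7.44% of all genes. The summed level was 126 RPKM in Pekin duck against 118 to 163 RPKM in the wild ducks, of which *LCP1* made up 70.9 RPKM in Pekin duck. The part of leukocyte RNA in the values of *GZMM*, *SRGN* and *RASGRP1* was not tested. In whole tissue, more cells of a type and more RNA in each of them cannot be told apart.

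A pair of genes of high-density lipoprotein stood above the wild range. *APOA1* (duck gene 101797140) encodes the main protein of that particle and was at 115 RPKM in Pekin duck, against 45.7 RPKM in black duck, 62.7 in lesser scaup, 16.5 in ruddy duck, 36.2 in harlequin duck and 15.3 in wood duck. *LCAT*, the enzyme that APOA1 activates to esterify cholesterol, was at 3.36 RPKM in Pekin duck, against 1.38 RPKM in black duck, 1.06 in lesser scaup, 1.34 in ruddy duck, 1.06 in harlequin duck and 0.959 in wood duck. The differences from the wild mean were 1.87 for *APOA1* and 1.02 for *LCAT* on the log2(RPKM + 1) scale, and chicken was higher than any duck in both, at 310 and 130 RPKM. *EXFABP*, an extracellular lipocalin that binds fatty acids, shared this order, with 6.24 RPKM in Pekin duck, 0.345 to 2.08 RPKM in the wild ducks and 15.6 RPKM in chicken. Its wild mean of 0.979 RPKM was under the level filter of 1 RPKM, which it passed with the Pekin duck value included.

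Receptors, channel subunits and their partners made up part of the remaining wide gaps above the range. *GLP1R* (duck gene 101792725), the receptor of the incretin hormone GLP-1, was at 12.9 RPKM in Pekin duck, against 4.25 RPKM in black duck, 1.36 in lesser scaup, 3.79 in ruddy duck, 0.300 in harlequin duck and 0.454 in wood duck. *SCN4B*, an auxiliary subunit of voltage-gated sodium channels, was at 55.4 RPKM in Pekin duck, against 32.8 RPKM in black duck, 32.8 in lesser scaup, 12.8 in ruddy duck, 26.2 in harlequin duck and 25.0 in wood duck. Its difference from the wild mean was 1.14 on the log2(RPKM + 1) scale, and 0.91 without ruddy duck. *MRAP2*, an accessory protein of melanocortin receptors, was at 12.2 RPKM in Pekin duck against 0.587 to 7.04 RPKM in the wild ducks, and *IL17REL*, a relative of the interleukin-17 receptors, at 16.8 RPKM against 0.260 to 6.62 RPKM.

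Of the others, *HOPX*, which encodes a small homeodomain protein that does not bind DNA, was at 24.8 RPKM in Pekin duck against 3.08 to 14.6 RPKM in the wild ducks. *ZFYVE27*, which encodes protrudin, a promoter of neurite outgrowth, was at 22.5 RPKM against 3.61 to 13.3 RPKM. *PLXDC1*, a plexin-domain membrane protein of vessel walls, was at 5.16 RPKM in Pekin duck against 0.198 to 2.46 RPKM, and *NTL*, a gene of the chicken annotation alone, at 7.25 RPKM against 0.952 to 2.96 RPKM. Black duck was the nearest wild bird for *HOPX*, *ZFYVE27* and *NTL*, and lesser scaup for *PLXDC1*.

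On the lower side, the widest gap of a gene with a symbol of its own belonged to *PENK* (duck gene 101789452, chicken gene 421131), which encodes proenkephalin, the precursor of opioid peptides that dampen pain signalling. It was at 1.21 RPKM in Pekin duck, against 6.33 RPKM in black duck, 6.72 in lesser scaup, 21.2 in ruddy duck, 6.02 in harlequin duck and 6.96 in wood duck. All wild ducks but ruddy duck sat within 1 RPKM of each other, and Pekin duck was at 0.201 of the nearest. The difference was -2.08 on the log2(RPKM + 1) scale, and -1.76 without ruddy duck. A wider gap was that of *RPL7.2*, a copy of a ribosomal protein gene that can share reads with the others, at 18.3 RPKM in Pekin duck against 69.5 to 211 RPKM in the wild ducks.

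*ADCYAP1* encodes PACAP, a peptide that nociceptors release, and was at 31.9 RPKM in Pekin duck, against 55.3 RPKM in black duck, 57.2 in lesser scaup, 157 in ruddy duck, 71.4 in harlequin duck and 127 in wood duck. *CPLX1*, which encodes complexin 1, a regulator of vesicle fusion at synapses, was at 73.7 RPKM in Pekin duck, against 185 RPKM in black duck, 152 in lesser scaup, 324 in ruddy duck, 144 in harlequin duck and 222 in wood duck. Pekin duck thus lay at 0.576 of the nearest wild duck for *ADCYAP1* and at 0.511 for *CPLX1*. The differences from the wild mean were -1.39 and -1.40 on the log2(RPKM + 1) scale, and -1.18 and -1.22 without ruddy duck.

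Other wide gaps below the range fell on genes of diverse function. *PSAT1*, an enzyme of serine synthesis, was at 7.97 RPKM in Pekin duck against 14.1 to 34.2 RPKM in the wild ducks, and *EBNA1BP2*, a nucleolar protein of ribosome assembly, at 21.4 RPKM against 35.3 to 106 RPKM. The *EBNA1BP2* difference of -1.24 came to -0.99 without ruddy duck. *MSH4*, a protein of meiotic recombination, was at 1.22 RPKM in Pekin duck against 3.02 to 10.2 RPKM, and *PADI1*, an enzyme that converts arginine to citrulline, at 0.408 RPKM against 1.20 to 3.87 RPKM. *TUBAL3*, an alpha-tubulin relative, was at 0.686 RPKM in Pekin duck, against 1.96 RPKM in black duck, 6.69 in lesser scaup, 21.3 in ruddy duck, 14.9 in harlequin duck and 43.4 in wood duck, so the *Anas* pair sat at the low end. Its difference, -2.94, was the widest from the wild mean among the 15 genes named on this side, although its gap to black duck was only -0.81.

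A pair of genes appeared on this side in separate rows for each annotation. *CUNH17ORF67* of the duck annotation was at 0.707 RPKM in Pekin duck against 1.79 to 60.4 RPKM in the wild ducks, and *C18H17ORF67* of the chicken annotation at 0.153 RPKM against 0.743 to 25.0 RPKM. In both rows black duck was the nearest wild duck, and harlequin duck the highest. *SMIM11A* of the duck annotation was at 11.1 RPKM in Pekin duck against 16.6 to 67.4 RPKM, and *SMIM11* of the chicken annotation, which encodes a small membrane protein, at 9.98 RPKM against 15.9 to 63.1 RPKM. The differences of *SMIM11A* and *SMIM11*, -1.12 and -1.19, came to -0.78 and -0.85 without ruddy duck. Judged by their symbols, the rows of each pair hold the same gene and were counted separately above.

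Genes of thermoreceptors and nociceptors sat low in Pekin duck, but their median difference was as low in black duck and lower in ruddy duck. Of 20 tested, 8 lay below all wild ducks (40%, against 9.32% of all genes) and none above (against 15.4%), and the median difference was -0.30, against 0.06 over all genes. Without ruddy duck the median was -0.50. Against its own 5 fellow ducks, the median of black duck was -0.30 too, against 0.06 over all genes. That of ruddy duck was -0.36, against -0.26 over all genes. It was -0.16 in lesser scaup, 0.32 in harlequin duck and 0.77 in wood duck. Over the alternatives tried, between 6 and 12 members lay below and none above, while between 7.44% and 14.5% of all genes lay below. By the same count, ruddy duck was the lowest of the 6 ducks for 6 of the 20 genes, against 45.8% of all genes, lesser scaup for 3, against 9.07%, black duck for 2, against 7.12%, wood duck for 1, against 17.1%, and harlequin duck for 0, against 11.5%. Wood duck was the highest for 14 of the 20, against 15.1% of all genes. The list was chosen with earlier results of these data known. Of its 8 members below the range, *SST* passed the level filter through lesser scaup alone and had a gap of -0.01, and *TRPA1* and *TRPM3* had narrow gaps too.

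Among its channels, *SCN11A* (duck gene 101799248), which encodes the nociceptor sodium channel Nav1.9, was at 43.2 RPKM in Pekin duck, against 63.9 RPKM in black duck, 113 in lesser scaup, 124 in ruddy duck, 58.5 in harlequin duck and 140 in wood duck. The same duck gene stands in a further row of the table, under another chicken gene, with identical values, and counts as 1 member here. *TRPA1*, the receptor of irritants such as mustard oil, was at 29.1 RPKM in Pekin duck, against 36.7 RPKM in black duck, 29.9 in lesser scaup, 57.0 in ruddy duck, 49.3 in harlequin duck and 99.2 in wood duck. Its gap to lesser scaup was only -0.03 on the log2(RPKM + 1) scale, against -0.43 for *SCN11A* to harlequin duck. *TRPM3*, a heat-activated channel, was at 6.18 RPKM in Pekin duck against 6.22 to 9.53 RPKM, again with a narrow gap. The heat and capsaicin receptor gene *TRPV1* and the cold receptor gene *TRPM8* were within the wild range, at 26.8 RPKM in Pekin duck against 21.5 to 55.7 RPKM and at 31.1 RPKM against 20.7 to 73.3 RPKM.

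*OPRM1*, which encodes the mu opioid receptor, was at 3.78 RPKM in Pekin duck, against 5.79 RPKM in black duck, 7.05 in lesser scaup, 4.81 in ruddy duck, 7.24 in harlequin duck and 16.6 in wood duck. *TAC1*, the precursor of substance P, was at 106 RPKM in Pekin duck, against 125 RPKM in black duck, 130 in lesser scaup, 114 in ruddy duck, 223 in harlequin duck and 401 in wood duck. Both genes were lowest in Pekin duck, with ruddy duck nearest and wood duck highest. The voltage-gated sodium channel gene *SCN9A* stayed within the range, at 37.3 RPKM in Pekin duck against 33.5 to 67.4 RPKM.

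**Figure D4:**
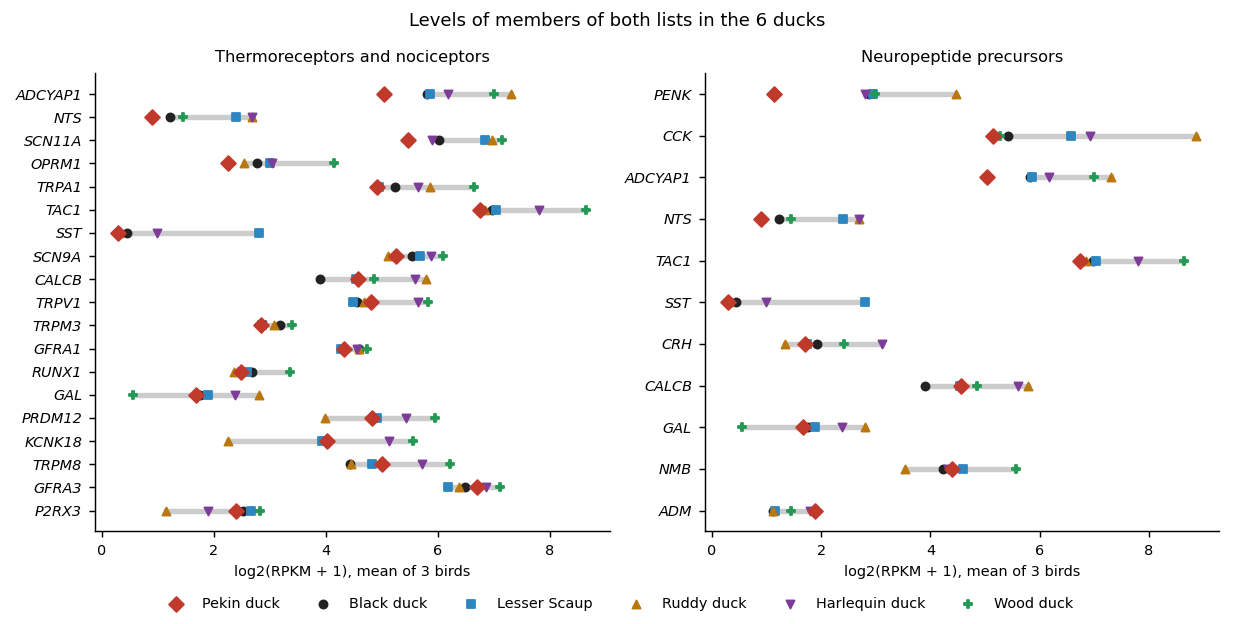
Levels of members of the thermoreceptor and nociceptor list (left, with 1 of the 20 tested members not drawn) and of the 11 tested neuropeptide precursors (right), as log2(RPKM + 1) of the mean of 3 birds, with 1 marker for each duck and a grey bar over the 5 wild ducks. Pekin duck (red diamonds) lies left of the bar for 8 nociceptor genes and right of none, and left of the bar for 6 precursors and right of it for *ADM*.

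Genes of neuropeptide precursors also sat low. The list was added after the low *PENK* and *ADCYAP1* had been seen and is not independent of them. It also shares members with the nociceptor list. *ADCYAP1*, *NTS*, *TAC1* and *SST*, below the range in both, are the same rows, so the counts of both lists overlap. Of 11 tested, 6 lay below the wild range (54.5%, against 9.32% of all genes), 4 of them at least 2-fold (against 0.502%), and 1 lay above. With no filter on low values, 10 of 41 lay below and 2 above, against 7.44% and 13.8% of all genes. The median difference was -0.68, and -0.85 without ruddy duck. Against its own 5 fellow ducks, the median of black duck was -0.44, and those of the remaining ducks lay between 0.04 and 0.96. Of the other ducks, black duck was lowest for 2 of the 11 genes, against 7.12% of all genes, ruddy duck for 2, against 45.8%, wood duck for 1, against 17.1%, and the remaining ducks for 0.

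*NTS*, the precursor of neurotensin, was at 0.864 RPKM in Pekin duck, against 1.34 RPKM in black duck, 4.27 in lesser scaup, 5.44 in ruddy duck, 5.45 in harlequin duck and 1.71 in wood duck. *CCK*, the precursor of cholecystokinin, was at 34.5 RPKM in Pekin duck, against 41.7 RPKM in black duck, 94.2 in lesser scaup, 464 in ruddy duck, 120 in harlequin duck and 37.7 in wood duck. The *CCK* difference of -1.46 leaned on ruddy duck and was -0.90 without it. *SST*, the precursor of somatostatin, was at 0.226 RPKM in Pekin duck, and lesser scaup, at 5.99 RPKM, was the one duck above 1 RPKM. The member above was *ADM*, which encodes the vasodilator adrenomedullin, at 2.68 RPKM in Pekin duck against 1.16 to 2.48 RPKM. Precursor genes within the range included *CALCB*, of the calcitonin gene-related peptide family, at 22.7 RPKM in Pekin duck against 13.9 to 54.2 RPKM.

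Of 26 mechanoreceptor genes tested, 3 lay above the wild range and 3 below (11.5% each, against 15.4% and 9.32% of all genes). Pekin duck was above the wild mean in 19 and below it in 7, with a median difference of 0.16, and 0.05 without ruddy duck. Against their own fellow ducks, the medians of black duck and wood duck were higher, at 0.28 and 0.23. The median was 0.06 in lesser scaup, -0.37 in harlequin duck and -0.38 in ruddy duck. Wood duck was highest for 9 of the 26 genes, against 15.1% of all genes, and black duck for 7, against 11.9%. Ruddy duck was highest for 4, against 21.3%, and Pekin duck for 3, against 15.4%. Harlequin duck was highest for 2, against 21.5%, and lesser scaup for 1, against 14.9%. Without black duck, 8 lay above the wild range and 4 below, where 21.2% and 12.4% of all genes did. With median-ratio scaling only 1 lay above and 3 below, where 13.5% and 11.4% of all genes did. Under quantile normalization 2 lay above and 2 below, where 13.1% and 12.5% of all genes did. The calls above thus depended in part on the scaling. *PIEZO2* (duck gene 101804683) was above it by the narrowest of margins, at 102 RPKM in Pekin duck, against 99.7 RPKM in black duck, 101 in lesser scaup, 92.4 in ruddy duck, 68.3 in harlequin duck and 81.5 in wood duck. Pekin duck, lesser scaup and black duck cannot be ordered from these values, since the gap was 0.01 on the log2(RPKM + 1) scale and the spread between birds is unknown.

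*MAFA*, a transcription factor gene of low-threshold mechanoreceptors in the mouse, was at 14.4 RPKM in Pekin duck, against 9.99 RPKM in black duck, 9.12 in lesser scaup, 2.11 in ruddy duck, 5.50 in harlequin duck and 7.38 in wood duck. Its difference was 1.10, and 0.80 without ruddy duck. *S100B*, a calcium-binding protein gene that glia express too, was at 220 RPKM in Pekin duck against 92.2 to 196 RPKM in the wild ducks. The related factor gene *MAF* lay below, at 17.8 RPKM in Pekin duck against 17.9 to 19.8 RPKM, a gap as narrow as that of *PIEZO2*.

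Also below was *SPP1*, which encodes osteopontin, at 0.871 RPKM in Pekin duck, against 2.11 RPKM in black duck, 6.49 in lesser scaup, 81.5 in ruddy duck, 5.14 in harlequin duck and 2.72 in wood duck. Its difference of -2.18 came to -1.36 without ruddy duck. Of the neurofilament and neurotrophin receptor genes, *NEFH* was within the range at 717 RPKM in Pekin duck against 326 to 769 RPKM, and *NTRK2* at 44.4 RPKM against 41.3 to 58.8 RPKM.

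Among genes of myelinating Schwann cells, 4 of 13 lay above the wild range and 1 below (30.8% and 7.69%, against 15.4% and 9.32% of all genes), with a median difference of 0.19. The median of black duck against its own 5 fellow ducks was higher, at 0.45. It was 0.17 in harlequin duck, 0.12 in lesser scaup, -0.1 in wood duck and -0.87 in ruddy duck. *DRP2*, part of the dystroglycan complex that anchors the Schwann cell membrane, was at 76.5 RPKM in Pekin duck, against 64.3 RPKM in black duck, 34.1 in lesser scaup, 16.2 in ruddy duck, 24.9 in harlequin duck and 42.7 in wood duck. The *DRP2* difference of 1.19 came to 0.95 without ruddy duck. Black duck was the next highest duck for *DRP2*, and also for the gap junction gene *GJB1*, at 5.35 RPKM in Pekin duck against 1.63 to 4.73 RPKM. The member below, *PMP2*, a fatty acid binding protein of myelin, was at 418 RPKM in Pekin duck against 495 to 3793 RPKM, with a difference of -1.39, and -0.94 without ruddy duck. The myelin gene *MBP* was within the range.

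Of 10 satellite glia genes, the adhesion gene *CDH19* lay above the wild range, at 26.3 RPKM in Pekin duck against 13.2 to 23.0 RPKM, and the fatty acid binding protein gene *FABP7* below it, at 399 RPKM against 443 to 1723 RPKM. Each share was 10%, against 15.4% above and 9.32% below for all genes. With median-ratio scaling 0 of the 10 lay above, where 13.5% of all genes did. Of 10 endothelial genes, 2 lay above (20%, against 15.4% of all genes) and none below. These were *VWF*, which encodes von Willebrand factor, at 12.0 RPKM in Pekin duck against 5.09 to 8.24 RPKM, and the junction gene *ESAM*, at 2.60 RPKM against 0.717 to 2.17 RPKM. Without wood duck 2 lay above and 4 below, where 17.9% and 12.5% of all genes did. None of the 4 erythroid genes tested lay outside.

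**Figure D5:**
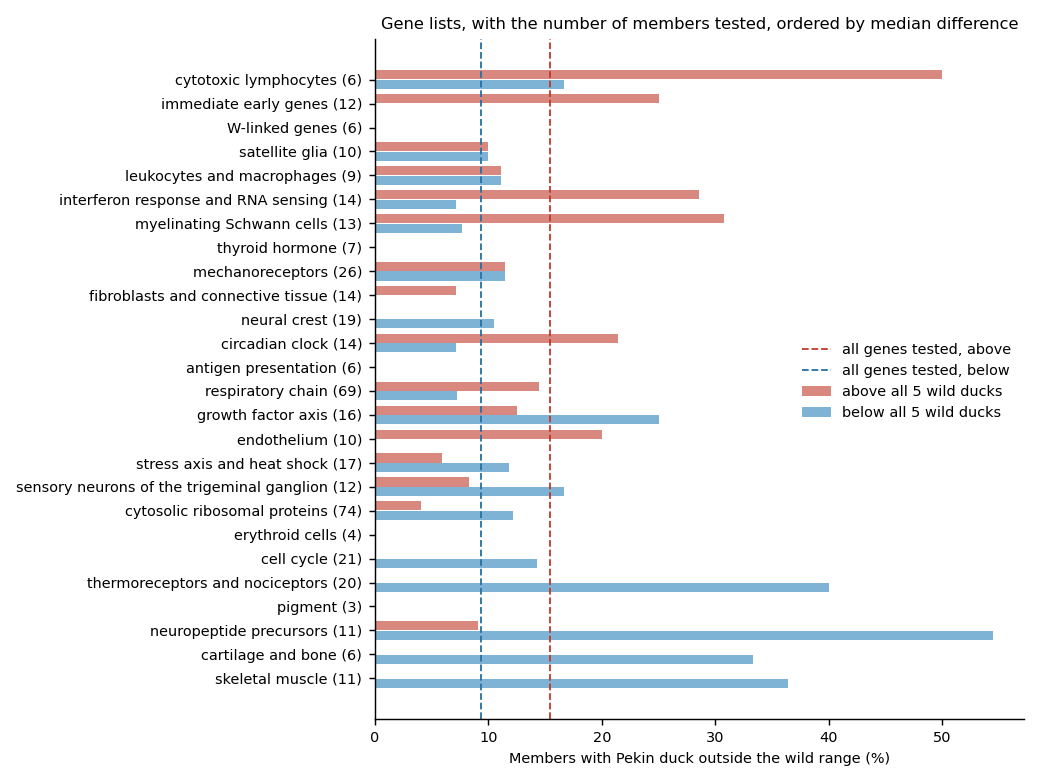
Percentage of the tested members of each gene list in which Pekin duck lay above (red) or below (blue) all 5 wild ducks, with the number tested in brackets, ordered by the median difference from the wild mean. Dashed lines mark the shares over all 12157 genes (15.4% above and 9.32% below), and the thermoreceptor and nociceptor bar, at 40% below and none above, is the longest on the lower side after that of the neuropeptide precursors, at 54.5%.

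Genes of muscle and skeleton, cell types that lie outside the ganglion, were also low in Pekin duck, but their levels varied widely among the wild ducks too. Of 11 muscle genes tested, 4 lay below the wild range (36.4%, against 9.32% of all genes) and none above, with a median difference of -1.29, and -0.75 without black duck. The 4 were all under 1 RPKM in Pekin duck and passed the level filter through the wild ducks, and of the 5 that reached a mean of 5 RPKM, 0 lay below. *MB*, which encodes myoglobin, was at 0.826 RPKM in Pekin duck, against 7.07 RPKM in black duck, 2.99 in lesser scaup, 3.85 in ruddy duck, 4.68 in harlequin duck and 2.91 in wood duck. The summed level of 15 muscle genes, leaving out *PVALB*, which sensory neurons express too, was 15.5 RPKM in Pekin duck, against 254 RPKM in black duck, 16.3 in lesser scaup, 86.1 in ruddy duck, 95.5 in harlequin duck and 13.1 in wood duck. Pekin duck, lesser scaup and wood duck thus shared a low sum, so muscle RNA was uneven among the wild ducks themselves. The actin-binding gene *NEXN*, known from heart and skeletal muscle, was at 2.49 RPKM in Pekin duck against 5.66 to 17.6 RPKM in the wild ducks. In wood duck and lesser scaup, both low in that sum, *NEXN* was at 12.8 and 5.66 RPKM. The part of muscle RNA in the values of *MB* and *NEXN* was not tested.

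Of 6 cartilage and bone genes, the cartilage collagen gene *COL11A1* and the bone sialoprotein gene *IBSP* lay below (33.3%, against 9.32% of all genes) and none above. The median difference was -0.69, while that of wood duck against its own 5 fellow ducks was lower, at -0.79. Wood duck was lowest for 3 of the 6 genes, against 17.1% of all genes. Summed over the list, wood duck was at 24 RPKM and Pekin duck at 32.4 RPKM, with the other ducks between 45.8 and 99.5 RPKM. Without wood duck 4 lay below, where 12.5% of all genes did. *IBSP* was at 0.214 RPKM in Pekin duck, against 0.318 to 16.5 RPKM, and its difference of -1.07 came to -0.37 without ruddy duck. Of 14 fibroblast genes, the collagen gene *COL6A1* lay above, at 78.3 RPKM in Pekin duck against 26.3 to 68.3 RPKM, and none below. The share above was 7.14%, against 15.4% of all genes.

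Immune pathways were mixed. Of 14 interferon response and RNA sensing genes, 4 lay above the wild range and 1 below (28.6% and 7.14%, against 15.4% and 9.32% of all genes), with a median difference of 0.20 that turned to -0.35 where a mean of at least 5 RPKM was asked for. *EIF2AK2*, the kinase PKR that halts translation on double-stranded RNA, was at 14.5 RPKM in Pekin duck, against 11.8 RPKM in black duck, 2.60 in lesser scaup, 5.40 in ruddy duck, 5.90 in harlequin duck and 7.20 in wood duck. None of 6 antigen presentation genes lay outside the range.

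Genes of the growth factor axis, looked up because Pekin ducks are a fast-growing meat breed, lay below the wild range in 4 of 16 cases and above it in 2 (25% and 12.5%, against 9.32% and 15.4% of all genes). None lay above with median-ratio scaling or under quantile normalization, where 13.5% and 13.1% of all genes did. Without black duck 4 lay above, where 21.2% of all genes did. *IGF1*, the main growth factor downstream of growth hormone, was at 1.98 RPKM in Pekin duck, against 2.96 RPKM in black duck, 3.73 in lesser scaup, 3.07 in ruddy duck, 2.96 in harlequin duck and 2.79 in wood duck. *IGFBP5*, which encodes one of its binding proteins, was at 3.25 RPKM in Pekin duck, against 4.74 RPKM in black duck, 5.53 in lesser scaup, 5.38 in ruddy duck, 5.42 in harlequin duck and 4.44 in wood duck. For both genes the 5 wild ducks lay close together, with a wild mean of 3.10 ± 0.365 RPKM for *IGF1* and 5.10 ± 0.485 RPKM for *IGFBP5* (SD over the 5 wild species). The differences were -0.46 and -0.52 on the log2(RPKM + 1) scale. *IGFBP2* and *MSTN*, which encodes the muscle growth inhibitor myostatin, were below with gaps of -0.03 and -0.01, and *IGF2* and *IGFBP7* were above with gaps of at most 0.01, margins too narrow to order the ducks.

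Among genes that passed the level filter, those of traits often linked to domestication were seldom outside the range. Of 19 neural crest genes, 2 lay below (*NRP1* and *ZEB2*) and none above. Of 3 pigment genes that passed the level filter (*KIT*, *MITF* and *SLC24A5*) and of 7 thyroid hormone genes, none lay outside. Of 17 stress axis and heat shock genes, *HSP90AA1* and *HSPH1* lay below and *HSPA8* above. *HSPA8* was at 881 RPKM in Pekin duck against 495 to 826 RPKM, and *HSPH1* at 42.4 RPKM against 44.5 to 91.9 RPKM. These shares, 10.5% of neural crest and 11.8% of stress genes below, were near the 9.32% of all genes. The shares above, 0% and 5.88%, were under the 15.4% of all genes. With no filter on low values, 4 of 16 pigment genes lay above and none below, against 13.8% and 7.44% of all genes. Without ruddy duck, 3 neural crest genes lay above and 3 below, and 4 stress genes lay below. Of all genes, 17.9% then lay above and 14.5% below.

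Of 12 immediate early genes, which neurons and other cells switch on within minutes of a stimulus, 3 lay above and none below (25% above, against 15.4% of all genes), with a median difference of 0.37, and 0.22 without ruddy duck. Without lesser scaup or without harlequin duck, 5 lay above, where 18.7% and 20.5% of all genes did. *BTG2* was at 5.18 RPKM in Pekin duck, against 3.66 RPKM in black duck, 2.27 in lesser scaup, 1.93 in ruddy duck, 2.45 in harlequin duck and 1.79 in wood duck. Of 14 clock genes, *PER2*, *CLOCK* and *ARNTL2* lay above and *BHLHE41* below, the 3 above with gaps of 0.01 to 0.10. The shares were 21.4% and 7.14%, against 15.4% and 9.32% of all genes. Only 1 lay above with median-ratio scaling or under quantile normalization, where 13.5% and 13.1% of all genes did. Of 21 cell cycle genes, 3 lay below and none above (14.3% below, against 9.32% of all genes), the widest gap being that of the mitotic gene *CENPF*, at 1.31 RPKM in Pekin duck against 1.59 to 5.84 RPKM. The count below was 8 without ruddy duck, where 14.5% of all genes lay below, and 9 under quantile normalization, where 12.5% did. It was 5 without wood duck and with median-ratio scaling, where 12.5% and 11.4% of all genes lay below.

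Among 74 cytosolic ribosomal protein genes, 3 lay above and 9 below (4.05% and 12.2%, against 15.4% and 9.32% of all genes), with a median difference of -0.18, and -0.05 without ruddy duck. The count below was 17 without wood duck and 14 without black duck or with median-ratio scaling. Of all genes, 12.5%, 12.4% and 11.4% lay below in these settings. Without harlequin duck 9 lay above, where 20.5% of all genes did. The widest gap below was that of *RPL23*, at 194 RPKM in Pekin duck against 229 to 2027 RPKM, and its difference of -1.02 came to -0.44 without ruddy duck. Among 69 respiratory chain genes, 10 lay above and 5 below (14.5% and 7.25%), near the 15.4% and 9.32% of all genes. Without harlequin duck, 24 lay above and 6 below, where 20.5% of all genes lay above. *SDHC*, a subunit of complex II, was at 54.9 RPKM in Pekin duck against 8.96 to 42.5 RPKM, with a difference of 0.92 that came to 0.53 without ruddy duck.

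None of 6 W-linked genes, carried by females alone in birds, lay outside the range. The levels of *HNRNPKL* and *CHD1W*, named here after their values were seen, differed between the ducks by more than those of the other 4. *HNRNPKL* was at 27.5 RPKM in Pekin duck, against 0.283 RPKM in black duck, 42.4 in lesser scaup, 51.8 in ruddy duck, 1.57 in harlequin duck and 46.2 in wood duck, and *CHD1W* was at 3.71 RPKM in Pekin duck against 0.543 RPKM in black duck and 0.428 in harlequin duck. The sex of the embryos was not in the labels, and its part in the differences described above was not tested.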

How the data were processed

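Total RNA of whole trigeminal ganglia was sequenced in 3 birds of each of 7 species. Per the submitters' processing notes, the authors used Trimmomatic 0.36 for trimming, STAR 2.5.4b for alignment, featureCounts of Subread 1.6.2 for counting and edgeR 3.22.3 downstream. The genomes were BGI_duck_1.0 and GRCg6a, and lists of both annotations were merged by gene symbol. The deposited RPKM table holds 1 value for each gene and species, the authors' mean over 3 birds, so depth in each bird, an interval for any value and a test over birds could not be had. The fit over birds that had been foreseen for a table of single birds was therefore replaced by description.

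RPKM values were used as deposited, with a pseudocount of 1 before log2 and a minimum mean of 1 RPKM over the 6 ducks. A fold change on this scale understates that of low genes. The difference was Pekin duck minus the mean of the 5 wild ducks, and the gap was the distance to the nearest wild duck. An RPKM listed at 0 can be a failed estimate and was given no fold. Calculations used Python 3.11.15, numpy 2.4.6 and pandas 2.3.3, and the scripts were tested on simulated data.

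Named were the 15 genes with the widest gap in each direction among those at least 2-fold outside that have a symbol of their own, up to 4 members outside the range for each gene list, members of a list that went against its rest, and markers the study used. Other names were chosen after their values were seen. The members and the 24 gene lists were chosen with earlier results of these data known, and the lists of neuropeptide precursors and cytotoxic lymphocytes were added after values had been seen. List genes with no row in the table were not analysed here. Alternatives were another pseudocount, other filters, 2 scalings, the wild median, the log2 of the wild mean, genes in both annotations only, and each wild duck left out in turn. Some genes that this rule names are not reported here.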

Additional observations from a re-analysis of the deposited data

Results flagged for a closer look

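For 38 genes, the 15 with the widest gap in each direction and the markers the study used, the 5 wild ducks were searched for 1 species far from its 4 fellows, by Dixon's criterion with a critical value of 0.71. Of these, 6 had one. Chance gives such a result for about 1 in 20 genes, but most of the 38 were chosen by these same wild duck values, so that rate tests nothing here, and ruddy duck, which accounts for 4 of the 6, stood apart over all genes. Ruddy duck was the far one for *PENK* at 21.2 RPKM, for *SPP1* at 81.5 RPKM, and for the rows *SMIM11* and *SMIM11A* at 63.1 and 67.4 RPKM, which hold the same gene by their symbols. In all of these Pekin duck was below the wild ducks and ruddy duck was the highest. Harlequin duck was the far one for *RASGRP1*, at 4.59 RPKM against 30.5 to 33.1 RPKM in the other wild ducks, with Pekin duck above all. Black duck was the far one for *NTRK2*, at 58.8 RPKM, with Pekin duck within the wild range.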

How the results depend on the processing

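No named gene outside the range changed direction under any alternative run. Only the 2 scalings could have reversed one, since the other alternatives keep such a gene on its side by construction. Gene list medians were not part of that check. The counts above and below the wild range, 1868 and 1133, became 2826 above with no filter on low values and 1212 above where the mean had to reach 5 RPKM, and 1764 below without ruddy duck. With each wild duck left out in turn they ranged between 2171 and 2580 above and between 1368 and 1764 below, since a range over 4 ducks is narrower than over 5. The 122 and 61 genes at least 2-fold outside became 243 and 124 with a pseudocount of 0.1, 65 and 38 under that filter of 5 RPKM, and 77 and 98 where the log2 was taken of the mean wild RPKM. With each wild duck left out in turn they ranged between 82 and 257 above and between 54 and 123 below, highest without black duck and lowest without ruddy duck. Black duck was the nearest wild duck in 1428 genes outside the range.

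Quantile normalization kept 91 of the 122 and 60 of the 61 genes. Of 364 values of gene list medians under the alternatives, 17 moved by more than the spread, mostly of lists with medians near 0, and of 1427 values of named genes 16 did, most of them with a pseudocount of 0.1. Keeping 1 row of those with identical values in the 6 ducks, an alternative chosen after seeing the data, left 2994 genes outside, 182 of them at least 2-fold. No paired analysis was possible because the table holds 1 mean for each species and its columns carry no replicate numbers. Depth in each bird is not in the table, and gaps smaller than the unknown spread between birds order no species.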
